A study of Mus musculus with 12 samples.

Results

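The Cyp4a genes encode cytochrome P450 enzymes of the endoplasmic reticulum that add a hydroxyl group to the omega end of fatty acids. The 6 genes described here, Cyp4a10, Cyp4a12a, Cyp4a12b, Cyp4a14, Cyp4a31 and Cyp4a32, were taken by symbol from 23183 gene symbols, and all 6 are listed in every one of the 12 libraries. The symbols were chosen by name with their FPKM in all 4 groups already known, so their values in these libraries are a description and carry no p-values. RNA was sequenced from the kidney cortex of male C57BL/6N mice 7 days after unilateral ureteral obstruction, an operation that ties off the ureter of one kidney. The 4 groups of 3 libraries were the contralateral kidney (CL) and the obstructed kidney (UUO) of Acot12+/+ mice, and the same 2 kidneys of Acot12-/- mice. All mice were 6 to 7 weeks old, and every animal had one ureter tied, so CL kidneys are the other kidney of operated mice and no group was left without surgery. Acot12 encodes an acetyl-CoA hydrolase, and the Acot12-/- mice carry a mutation made with an RNA-guided endonuclease in all tissues. The comparisons ask what obstruction did in each genotype and what the loss of Acot12 did in each kidney.

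The omega-hydroxylated fatty acids made by these enzymes are oxidized further to dicarboxylic acids, which peroxisomes shorten. With arachidonic acid as substrate, some of the enzymes make 20-hydroxyeicosatetraenoic acid (20-HETE), a lipid that acts on vessel tone and on salt transport in the kidney. Cyp4a10 and Cyp4a14 are textbook targets of the fatty acid receptor PPARalpha, and Cyp4a12a is known as an androgen-dependent 20-HETE synthase of the male mouse kidney. In the kidney the family is known mainly from the proximal tubule.

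The 6 genes lie in 323 kb of chromosome 4 in mm10 (GRCm38, chr4:115299046-115621602), in the order Cyp4a12a, Cyp4a12b, Cyp4a14, Cyp4a10, Cyp4a31 and Cyp4a32, and all but Cyp4a14 are on the plus strand. The annotation places Cyp4a12a at chr4:115299046-115332815, Cyp4a12b at chr4:115411624-115439034, Cyp4a14 at chr4:115486200-115496142, Cyp4a10 at chr4:115518264-115533649, Cyp4a31 at chr4:115563649-115579015 and Cyp4a32 at chr4:115600969-115621602, with 13 exons in Cyp4a10 and 12 in each of the others. The coding parts are 1521 to 1527 bases long in GENCODE vM21. Near-identical copies fall into 2 sets. Cyp4a12a and Cyp4a12b share 98.6% of 1525 aligned coding positions, and Cyp4a10 shares 96.6% with Cyp4a31 and 97.2% with Cyp4a32 over 1527 positions. Cyp4a14 is at most 76.7% identical to any other member. The lines that follow give the 78 coding bases around the cysteine codon whose product holds the heme iron, with capitals where a base differs from Cyp4a10, because they show how far reads of these genes can be told apart. The stretch joins 2 exons and its coordinates include the intron: chr4:115529478-115532567 (plus) in Cyp4a10, chr4:115328962-115331870 (plus) in Cyp4a12a and chr4:115487275-115489829 (minus) in Cyp4a14. Cyp4a31 and Cyp4a32 have the same letters as Cyp4a10, and Cyp4a12b has those of Cyp4a12a.
Cyp4a10: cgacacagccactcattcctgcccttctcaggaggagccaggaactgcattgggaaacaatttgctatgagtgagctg
Cyp4a12a: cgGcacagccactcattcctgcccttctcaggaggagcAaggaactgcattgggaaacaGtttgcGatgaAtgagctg
Cyp4a14: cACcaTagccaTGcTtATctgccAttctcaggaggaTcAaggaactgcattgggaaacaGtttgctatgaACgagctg

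Cyp4a12a and Cyp4a12b are near-identical genes whose levels went apart between the groups, so the coding window of 60 bases in which their letters differ most is given next, with capitals at the 4 differing bases. It covers coding bases 624 to 683, counted from the start codon, across an exon junction: chr4:115326309-115326681 (plus) in Cyp4a12a and chr4:115432561-115432934 (plus) in Cyp4a12b.
Cyp4a12a: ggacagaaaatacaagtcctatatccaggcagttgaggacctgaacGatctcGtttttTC
Cyp4a12b: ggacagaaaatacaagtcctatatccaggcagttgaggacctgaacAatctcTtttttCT

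Over the whole transcript, 35.8% of the 100-base windows of Cyp4a12a occur letter for letter in Cyp4a12b, and 36.2% of those of Cyp4a12b in Cyp4a12a. For Cyp4a10, Cyp4a31 and Cyp4a32 the share found in another member is 12.7%, 8.22% and 20.1%. Cyp4a14 has no such window. The aligner and the rule for reads that match several genes are not given in the sources used here, so the split of reads within each set of copies is uncertain, and sums over the sets are given beside the single genes.

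The values are FPKM, in which fragments are divided by transcript length and library size, which puts genes of different length on a common scale. The library size that divides the FPKM was read from the steps between low values. In units of 1e6 fragments it was 12.2 to 15.9 in CL libraries and 18.1 to 22.4 in UUO libraries. Total FPKM ran the other way, at 799670 to 977981 in CL and 491078 to 686425 in UUO libraries. The totals include Kap, which was listed at 0 in 3 of the 6 CL libraries and at up to 189588 FPKM in Acot12+/+ CL. The library size may include a scaling made in the processing, so it is not read as the number of fragments sequenced. Acot12 stood at 73.8, 52.7 and 78.1 FPKM in Acot12+/+ CL and at 9.14, 9.01 and 6.80 FPKM in Acot12-/- CL, so transcript was reduced but not gone in the mutant. The summed level of 16 proximal tubule markers was 6598 to 12294 FPKM in CL libraries and 1015 to 3027 FPKM in UUO libraries, and no marker was at 0 in all 3 libraries of a group. Bulk values cannot tell fewer tubule cells from less RNA per cell. Acot12-/- CL replicate 2 stands apart from its group: without it, limma called 2923 genes between the genotypes in CL in place of 593. Of the 6 members, 5 reached 1 FPKM in 3 or more libraries and entered the fit, and Cyp4a32 did not.

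Cyp4a10, one of the PPARalpha targets, was the most abundant member in both CL groups and lower in every UUO library than in every CL library of its genotype. It measured 251, 165 and 181 FPKM in Acot12+/+ CL (replicates 1 to 3) and 17.0, 35.5 and 64.3 FPKM in Acot12+/+ UUO. In Acot12-/- mice it measured 273, 357 and 272 FPKM in CL and 75.4, 8.52 and 75.2 FPKM in UUO. The CL and UUO libraries did not overlap in either genotype, and the UUO libraries of the genotypes overlapped. Means were 199 ± 45.6, 38.9 ± 23.8, 300 ± 48.8 and 53.1 ± 38.6 FPKM (SD, n = 3) in Acot12+/+ CL, Acot12+/+ UUO, Acot12-/- CL and Acot12-/- UUO. UUO was thus at 19.6% of CL in Acot12+/+ mice and at 17.7% in Acot12-/- mice. The log2 difference, on the log2(FPKM + 1) scale used for every difference here, which understates changes of low genes, was -2.49 (SE 0.68) and -2.97 (SE 0.68). All 3 Acot12-/- CL libraries lay above all 3 Acot12+/+ CL libraries, at a ratio of means of 1.51.

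Cyp4a31, the neighbour of Cyp4a10 and nearly its copy, ran beside it at a lower level. Its values were 129, 85.6 and 120 FPKM in Acot12+/+ CL and 21.1, 27.8 and 47.3 FPKM in Acot12+/+ UUO. They were 166, 172 and 135 FPKM in Acot12-/- CL and 60.8, 20.2 and 38.9 FPKM in Acot12-/- UUO. As for Cyp4a10, neither genotype had overlapping CL and UUO libraries, and every Acot12-/- CL library was above every Acot12+/+ CL library. The log2 difference of UUO from CL was -1.82 (SE 0.36) in Acot12+/+ and -2.08 (SE 0.36) in Acot12-/- mice. The level of Cyp4a31 over that of Cyp4a10 was 0.482 to 0.665 in the 6 CL libraries. In UUO it was 1.24, 0.784 and 0.736 in Acot12+/+ and 0.805, 2.37 and 0.517 in Acot12-/- libraries, so Cyp4a31 exceeded Cyp4a10 in 1 UUO library of each genotype, the one with the lowest Cyp4a10.

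Cyp4a32, the last gene of the cluster, was close to the limit of detection. It measured 0.621, 0.289 and 0.466 FPKM in the CL and 0.182, 0.056 and 0.106 FPKM in the UUO kidneys of Acot12+/+ mice, and 0.198, 0.693 and 0.219 FPKM in the CL and 0.080, 0.225 and 0.057 FPKM in the UUO kidneys of Acot12-/- mice. At these library sizes that is about 2 to 17 fragments each. With so few fragments, and with 13.8% of its 100-base windows shared with the far more abundant Cyp4a10, no change of Cyp4a32 is read from these data. Of the other Cyp4a symbols, Cyp4a29 was listed at 0 in every library, and Cyp4a30b was listed above 0 in 2 libraries, at 0.034 and 0.037 FPKM. Summed over Cyp4a10, Cyp4a31 and Cyp4a32, the level was 311 ± 65.4 FPKM in CL and 71.1 ± 37.3 in UUO of Acot12+/+ mice, and 458 ± 63.6 in CL and 93.1 ± 56.7 in UUO of Acot12-/- mice (SD, n = 3).

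Cyp4a14, the other textbook PPARalpha target and the most divergent sequence of the family, differed from Cyp4a10 in how it stood in the Acot12+/+ kidneys. It measured 90.0, 36.3 and 27.2 FPKM in Acot12+/+ CL and 17.4, 31.8 and 26.2 FPKM in Acot12+/+ UUO, and these groups overlapped. Within a replicate number, UUO was at 19.3%, 87.7% and 96.2% of CL, so the lower mean in UUO came mostly from replicate 1. Without Acot12+/+ CL replicate 1, the log2 difference went from -0.85 (SE 0.69) to -0.35. In Acot12-/- mice, Cyp4a14 was high in CL, at 126, 209 and 132 FPKM, and measured 50.0, 5.18 and 48.4 FPKM in UUO, with no overlap. There the log2 difference was -2.61 (SE 0.69). Among the 4 members with higher values in Acot12-/- CL, Cyp4a14 had the widest difference, at 155 ± 46.1 against 51.2 ± 34.0 FPKM (SD, n = 3), a ratio of 3.04 and a log2 difference of 1.74 (SE 0.69), or 1.51 without Acot12-/- CL replicate 2. The ratio of Cyp4a14 to Cyp4a10 in CL was 0.150 to 0.359 for Acot12+/+ and 0.462 to 0.585 for Acot12-/- libraries. Cyp4a14 is the member with no 100-base window shared with another.

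**Figure D1:**
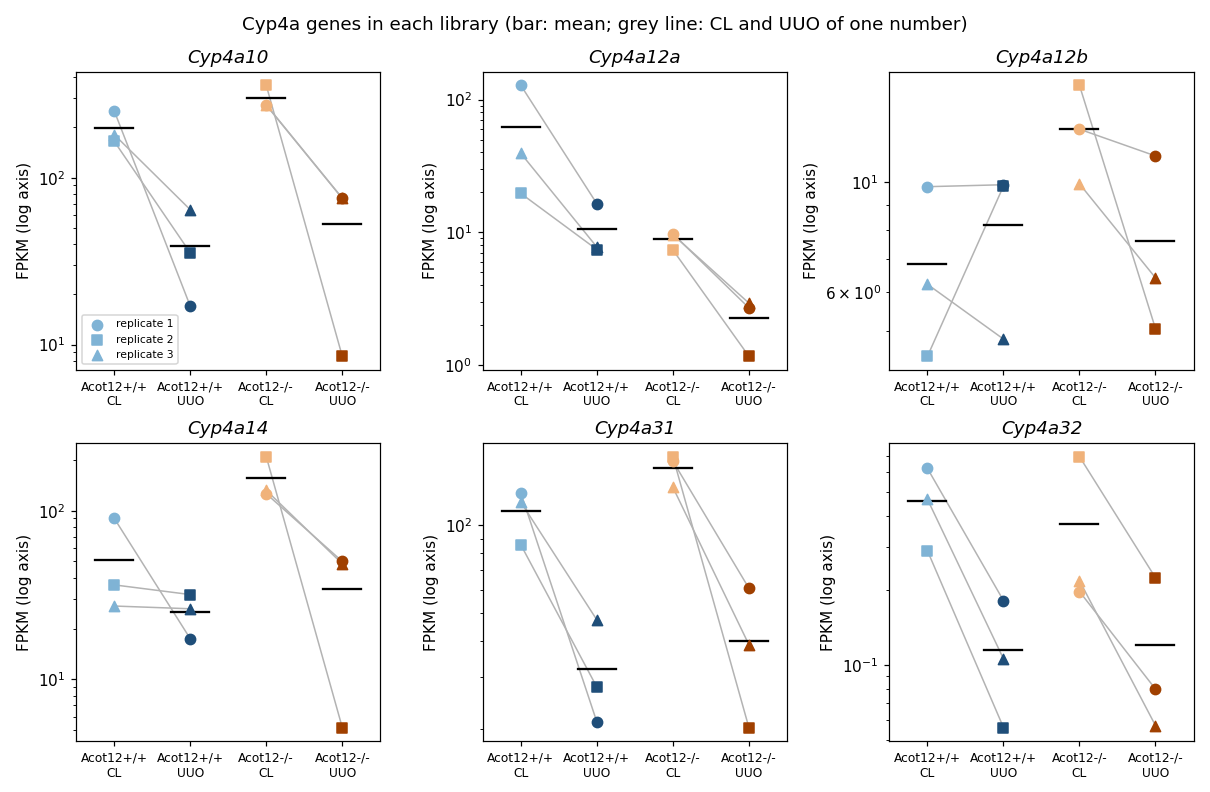
FPKM of the 6 Cyp4a genes (log axis, 1 panel per gene) in the 4 groups, with 1 marker shape per replicate number, a black bar at the group mean and a grey line from the CL to the UUO library of one number. Cyp4a10 and Cyp4a31 are lower in UUO on every line, Cyp4a12a is lower in all 6 Acot12-/- libraries than its Acot12+/+ counterparts, and Cyp4a14 and Cyp4a10 have their lowest value, 5.18 and 8.52 FPKM, in Acot12-/- UUO replicate 2.

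Number 2 of the Acot12-/- mice carried the widest contrast between CL and UUO for Cyp4a10 and Cyp4a14. Its CL library had the highest Cyp4a10 and Cyp4a14 of all 12 libraries, and its UUO library the lowest. UUO was at 2.39% of CL for Cyp4a10 and at 2.48% for Cyp4a14, against 27.7% to 39.7% for these genes in Acot12-/- numbers 1 and 3. In Acot12+/+ number 1 it was at 6.80% and 19.3%. The proximal tubule marker sum of Acot12-/- number 2 was 7975 FPKM in CL, the lowest of its group, and 1015 FPKM in UUO, the lowest of all 12. Without Acot12-/- UUO replicate 2, the log2 difference of UUO from CL was -1.97 for Cyp4a10 and -1.60 for Cyp4a14. Without that library the difference between the genotypes in UUO went from 0.12 (SE 0.68) to 1.12 for Cyp4a10 and from -0.02 (SE 0.69) to 0.98 for Cyp4a14. Without Acot12-/- UUO replicate 1 it was -0.38 for Cyp4a10 and -0.54 for Cyp4a14. For both genes the size and the sign of this difference thus depended on which library was left out.

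Cyp4a12a, the androgen-dependent 20-HETE synthase, was the member that stood lower in Acot12-/- mice in both kidneys. It measured 128, 19.6 and 39.3 FPKM in Acot12+/+ CL and 9.72, 7.35 and 9.60 FPKM in Acot12-/- CL. In UUO it measured 16.4, 7.40 and 7.73 FPKM in Acot12+/+ and 2.69, 1.16 and 2.92 FPKM in Acot12-/- mice. No library of one genotype overlapped the other within a kidney, and no UUO library overlapped CL within a genotype. The Acot12-/- mean was at 14.2% of the Acot12+/+ mean in CL and at 21.4% in UUO, with log2 differences of -2.27 (SE 0.53) and -1.79 (SE 0.53). UUO was at 16.9% of CL in Acot12+/+ and at 25.4% in Acot12-/- mice, with log2 differences of -2.13 (SE 0.53) and -1.64 (SE 0.53). The 3 Acot12+/+ CL libraries spanned a range of 6.56, the highest over the lowest, and the 3 Acot12-/- CL libraries one of 1.32. Acot12+/+ CL replicate 1 set the top of that range, and its summed markers of other tubule segments were 3121 FPKM against 1825 to 2225 FPKM in the other 5 CL libraries. The part of that in its Cyp4a12a level was not tested. Without it, the CL difference between genotypes was -1.55 and the difference of UUO from CL in Acot12+/+ mice -1.41.

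Cyp4a12b, whose product is nearly the same enzyme, did not follow Cyp4a12a. It measured 9.79, 4.44 and 6.21 FPKM in Acot12+/+ CL and 9.88, 9.82 and 4.81 FPKM in Acot12+/+ UUO. It measured 12.8, 15.7 and 9.92 FPKM in Acot12-/- CL and 11.3, 5.05 and 6.40 FPKM in Acot12-/- UUO. CL and UUO overlapped in each genotype, and the Acot12-/- CL libraries lay above the Acot12+/+ CL libraries, 9.92 against 9.79 FPKM at the nearest. The log2 differences of UUO from CL were 0.23 (SE 0.33) in Acot12+/+ and -0.73 (SE 0.33) in Acot12-/- mice, and that of the genotypes in CL was 0.86 (SE 0.33). The ratio of Cyp4a12a to Cyp4a12b in Acot12+/+ mice was 13.1, 4.4 and 6.33 for CL and 1.66, 0.753 and 1.61 for UUO. The Acot12-/- mice had 0.759, 0.470 and 0.968 for CL and 0.237, 0.230 and 0.456 for UUO. Cyp4a12b was thus the more abundant of the pair in all 6 Acot12-/- libraries and in 1 of 6 Acot12+/+ libraries. As the division of reads between the pair is uncertain, their sum is given too. For Acot12+/+ mice it was 138, 24.0 and 45.6 FPKM in CL and 26.3, 17.2 and 12.5 FPKM in UUO. For Acot12-/- mice it was 22.5, 23.0 and 19.5 FPKM in CL and 14, 6.21 and 9.32 FPKM in UUO. The sum was still lower in every Acot12-/- CL library than in every Acot12+/+ CL library, 23.0 against 24.0 FPKM at the nearest, and the UUO libraries of the genotypes overlapped.

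**Figure D2:**
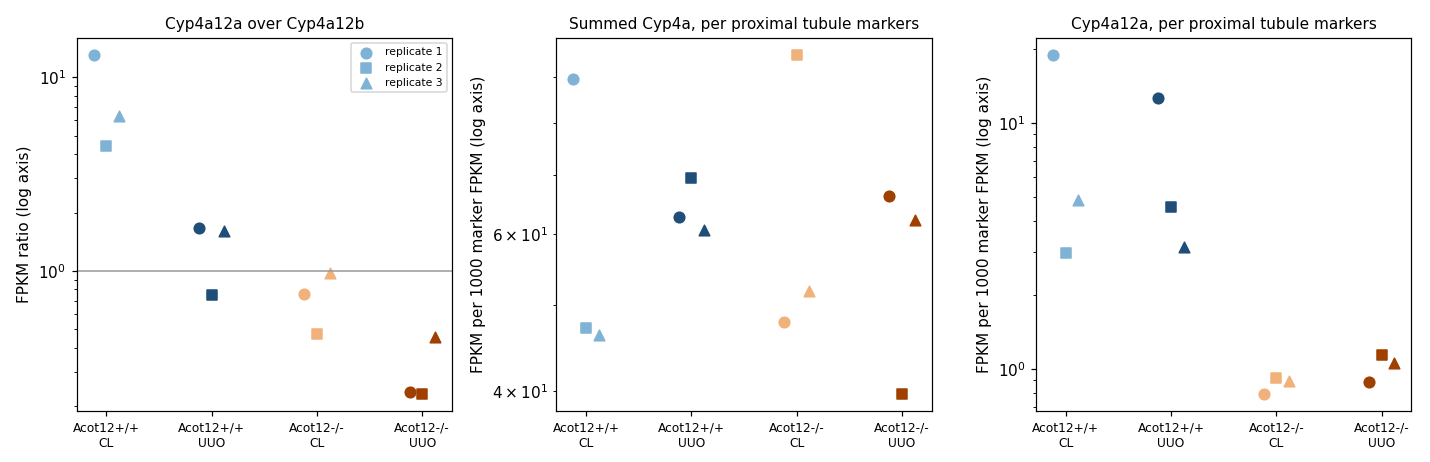
Left, FPKM of Cyp4a12a over Cyp4a12b; middle, summed FPKM of the 6 genes and, right, Cyp4a12a, each per 1000 FPKM of summed proximal tubule markers (log axes, 1 point per library, shapes mark replicate numbers, grey line at a ratio of 1). The ratio runs from 4.4 to 13.1 in Acot12+/+ CL down to 0.230 to 0.456 in Acot12-/- UUO, the middle values of the groups overlap, and on the right the Acot12-/- libraries lie at 0.791 to 1.14 and the Acot12+/+ libraries at 2.96 to 18.9.

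Counted over the family, 3 of the 5 tested members in Acot12+/+ mice (Cyp4a10, Cyp4a12a and Cyp4a31) and 4 of 5 in Acot12-/- mice (Cyp4a10, Cyp4a12a, Cyp4a14 and Cyp4a31) were lower in UUO with no overlap. Over the 13243 tested genes, 35.8% and 27.6% were lower with no overlap in these comparisons. In CL, 4 members were higher in Acot12-/- mice with no overlap, beside 8.6% of tested genes, and Cyp4a12a was lower, beside 9.73%. In UUO only Cyp4a12a was lower with no overlap among the 5, beside 6.48% of tested genes, and none was higher. These counts are descriptions, since the symbols were chosen with these values known. In the values as deposited, the median log2 difference of all tested genes was between -0.01 and 0.01 in each comparison. With median-ratio scaling it was at most 0.02. Whether the deposited values had already been scaled in such a way was not tested.

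**Figure D3:**
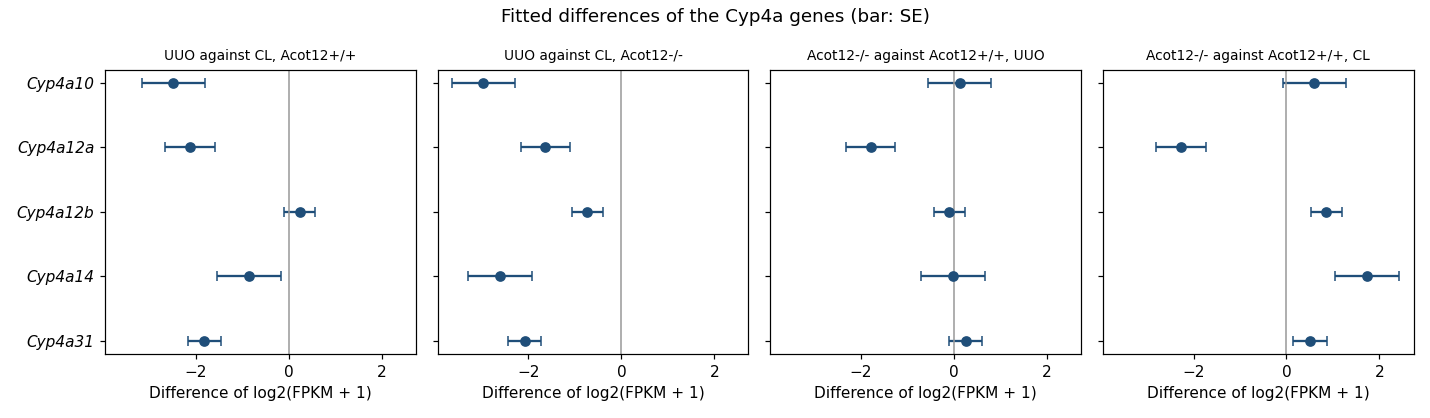
Fitted differences of log2(FPKM + 1) with their standard errors for the 5 members that entered the fit, in 1 panel per comparison, with a grey line at 0. In the panel of UUO against CL in Acot12+/+ mice all but Cyp4a12b lie below 0, in that of Acot12-/- mice all 5 do, and in the last panel Cyp4a12a lies at -2.27 while the other 4 lie between 0.51 and 1.74.

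The summed FPKM of the 6 genes was 431 ± 157 in CL and 115 ± 34.3 in UUO of Acot12+/+ mice, and 636 ± 110 in CL and 138 ± 85.4 in UUO of Acot12-/- mice (SD, n = 3). The libraries gave 609, 311 and 375, then 82.0, 112 and 150, then 587, 761 and 558, and then 200, 40.3 and 172 FPKM in that order of groups and replicates. CL and UUO did not overlap in either genotype, and the genotypes overlapped in both kidneys. Levels ordered as Cyp4a10, Cyp4a31, Cyp4a12a, Cyp4a14, Cyp4a12b and Cyp4a32 in Acot12+/+ CL, where Cyp4a31 overlapped Cyp4a12a and Cyp4a12a overlapped Cyp4a14. In UUO the order of the means was Cyp4a10, Cyp4a31 and Cyp4a14 in both genotypes, and these neighbours overlapped, followed by Cyp4a12a and Cyp4a12b in Acot12+/+ and by Cyp4a12b and Cyp4a12a in Acot12-/- mice. In Acot12-/- CL, Cyp4a31 and Cyp4a14 overlapped, at means of 158 and 155 FPKM, and Cyp4a12a, at 8.89 ± 1.33, was under Cyp4a12b, at 12.8 ± 2.87 FPKM (SD, n = 3). Cyp4a10 made up 47.5% ± 5.96 of the sum in Acot12+/+ CL and 47.3% ± 1.21 in Acot12-/- CL, Cyp4a14 made up 11.2% ± 3.78 and 24.2% ± 3.02, and Cyp4a12a made up 12.6% ± 7.62 and 1.45% ± 0.417 (SD, n = 3). Cyp4a12b made up 1.57% ± 0.121 of the sum in CL and 8.0% ± 4.47 in UUO in Acot12+/+, and 2.00% ± 0.207 and 7.30% ± 4.62 in Acot12-/- mice (SD, n = 3), while its own level overlapped between the kidneys.

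**Figure D4:**
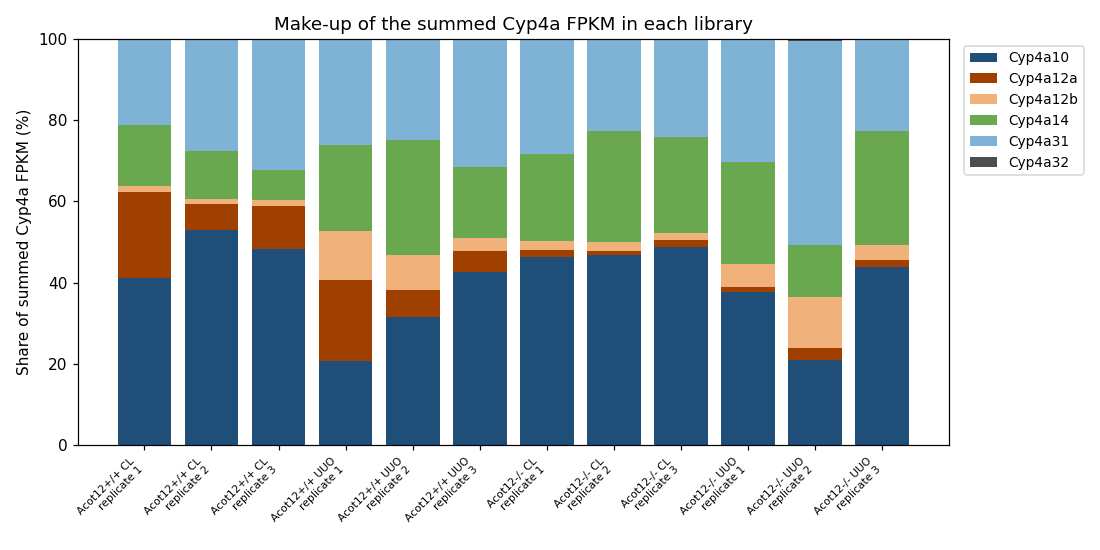
Share of the summed FPKM of the 6 genes taken by each gene (%), 1 stacked bar per library. Cyp4a12a takes 6.29% to 21.1% of the Acot12+/+ CL bars and 0.966% to 1.72% of the Acot12-/- CL bars, and Cyp4a31 reaches 50.1% in Acot12-/- UUO replicate 2.

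Proximal tubule markers were lower in the same kidneys as the family. Of the 16 markers, 14 were called lower in UUO in Acot12+/+ mice and 15 in Acot12-/- mice by limma (adjusted p under 0.05). Per 1000 FPKM of marker sum, the summed Cyp4a level was 46.2 to 89.5 in CL and 60.7 to 69.4 in UUO of Acot12+/+ mice, and 47.8 to 95.4 in CL and 39.7 to 66.2 in UUO of Acot12-/- mice, and all 4 groups overlapped. Per marker sum, Cyp4a12a still separated the genotypes, at 2.96 to 18.9 in the 6 Acot12+/+ and 0.791 to 1.14 in the 6 Acot12-/- libraries. Cyp4a10, Cyp4a14, Cyp4a31 and Cyp4a12b overlapped between the genotypes in CL per marker sum. Cyp4a10 was at 22.3 to 36.8 in Acot12+/+ and 22.2 to 44.7 in Acot12-/- CL. For Cyp4a14 it was 3.36 to 13.2 and 10.2 to 26.1. The marker sum itself was 6598 to 8104 FPKM in Acot12+/+ and 7975 to 12294 FPKM in Acot12-/- CL. Of the 16 markers, 14 were higher in Acot12-/- CL, and none was called. Macrophage, fibroblast and endothelial markers also differed between the CL groups: their sums were 130 to 153, 136 to 177 and 125 to 200 FPKM in Acot12+/+ and 48.8 to 102, 46.9 to 108 and 41.4 to 65.0 FPKM in Acot12-/- CL, with no marker at 0 in a whole group. The part of cell make-up in the Cyp4a values was not tested.

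Genes outside the family were read from 8 lists around omega-oxidation with limma's adjusted p over all tested genes. Counting each gene once, 54 of 90 tested genes were called lower and 8 higher in UUO in Acot12+/+ mice, and 56 lower and 13 higher in Acot12-/- mice. Over all tested genes, 23.9% were called lower and 23.6% higher in Acot12+/+, and 27.2% lower and 26.6% higher in Acot12-/- mice. Scaling libraries to equal total FPKM raised the median gene by 0.62 and 0.45 in UUO and turned this split to 1048 lower of 8472 called and 1551 lower of 7628. The Cyp4a differences were then -1.77 and -2.44 for Cyp4a10, -1.44 and -1.22 for Cyp4a12a, -0.14 and -2.08 for Cyp4a14, -1.11 and -1.54 for Cyp4a31 and 0.87 and -0.23 for Cyp4a12b. Counts of the lists in Acot12+/+ mice moved too. With equal totals, 13 PPARalpha targets were lower and 6 higher, 10 genes of the later oxidation steps were lower and 2 higher, 3 epoxygenase and hydrolase genes were lower and 1 higher, 1 electron donor was lower and 1 higher, and 2 genes of arachidonate supply were higher. In Acot12-/- mice these lists, in the same order, had 20 lower and 5 higher, 13 and 2, 5 and 1, 3 and 1, and 0 and 2.

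Among 7 tested genes of the other Cyp4 subfamilies, 2 were called lower and 4 higher in UUO in Acot12+/+ mice, and 2 lower and 3 higher in Acot12-/- mice. Cyp4b1, a lung and kidney P450 and the most abundant gene of the list, measured 876, 1005 and 1212 FPKM in Acot12+/+ CL and 85.7, 145 and 206 FPKM in UUO. The log2 difference was -2.89 (SE 0.39, limma adjusted p = 1.11e-04). Cyp4v3, a fatty acid hydroxylase, rose by 1.72 (SE 0.20, limma adjusted p = 4.92e-05), from 2.15 ± 0.254 to 9.37 ± 0.861 FPKM (SD, n = 3). Cyp4f13 stood at 12.0 ± 1.22 and 12.5 ± 0.311 FPKM (SD, n = 3) with a difference of 0.06 (SE 0.24, limma adjusted p = 0.857).

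The hydroxylation step needs electrons from partner proteins. Cyb5a, the cytochrome b5 that passes electrons to microsomal P450 enzymes, measured 2188, 1965 and 2326 FPKM in Acot12+/+ CL and 331, 402 and 606 FPKM in UUO, a fall by 2.31 (SE 0.29, limma adjusted p = 6.79e-05). In all, 3 of 4 electron donors were lower in UUO in each genotype. The other one, Cyb5r3, a cytochrome b5 reductase, differed by 0.44 (SE 0.19, limma adjusted p = 0.0797) in Acot12+/+ and rose by 0.60 (SE 0.19, limma adjusted p = 0.0198) in Acot12-/- mice. Of 19 tested genes for the later steps, from alcohol and aldehyde dehydrogenases to peroxisomal oxidation of dicarboxylic acids, 14 were lower and 1 higher in each genotype. Ehhadh, the peroxisomal bifunctional enzyme that shortens dicarboxylic acids, fell most, by 2.98 in Acot12+/+ (SE 0.47, limma adjusted p = 3.31e-04), from 309 ± 45.5 to 42.0 ± 23.6 FPKM (SD, n = 3). Adh7, an alcohol dehydrogenase, was the 1 that rose, by 1.17 (SE 0.26, limma adjusted p = 0.00315), at levels under 4 FPKM. Adh1, the abundant alcohol dehydrogenase, fell by 0.85 (SE 0.27, limma adjusted p = 0.0208) in Acot12+/+ mice, a call lost with equal totals.

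Arachidonic acid is also a substrate of the epoxygenases, and 5 of 8 tested epoxygenase and epoxide hydrolase genes were lower in UUO in Acot12+/+ and 6 of 8 in Acot12-/- mice. Cyp2j5, an epoxygenase abundant in the mouse kidney, measured 614, 431 and 529 FPKM in Acot12+/+ CL and 144, 154 and 171 FPKM in UUO (log2 difference -1.73, SE 0.24, limma adjusted p = 1.28e-04). Ephx2, the soluble epoxide hydrolase, was at 305 ± 74.7 and 81.0 ± 27.2 FPKM (SD, n = 3), and Cyp2j11 had the largest fall of the list, at -2.89 (SE 0.39, limma adjusted p = 1.21e-04). None of 4 tested genes of arachidonate release and prostaglandin synthesis was called in Acot12+/+ mice (2 were higher with equal totals), and 2 were higher in UUO in Acot12-/- mice. They were Pla2g4a, the phospholipase that frees arachidonic acid, with a rise by 0.96 (SE 0.23, limma adjusted p = 0.00351), and Ptgs1, cyclooxygenase 1, with a rise by 0.61 (SE 0.13, limma adjusted p = 0.00187).

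**Figure D5:**
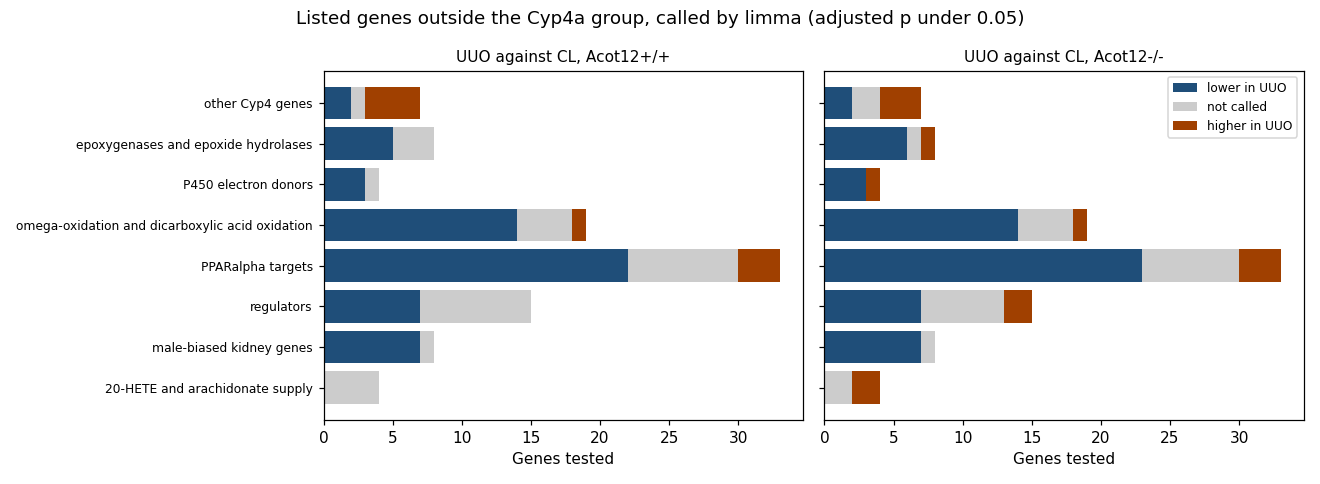
Number of tested genes in each list that limma called lower in UUO (blue), did not call (grey) or called higher (brown), for Acot12+/+ (left) and Acot12-/- mice (right). The list of PPARalpha targets has 22 of 33 genes lower on the left and 23 of 33 on the right.

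PPARalpha is the receptor through which fatty acids raise Cyp4a10 and Cyp4a14. Of 33 tested targets, 22 were lower and 3 higher in UUO in Acot12+/+ mice, and 23 lower and 3 higher in Acot12-/- mice, with medians of -1.03 and -1.35 beside 0.01 and -0.01 over all genes. Acadm, the medium-chain acyl-CoA dehydrogenase, fell by 2.70 in Acot12+/+ mice (SE 0.40, limma adjusted p = 2.02e-04), and Txnip, a thioredoxin-binding protein, had the largest rise, by 1.35 (SE 0.26, limma adjusted p = 0.00113). Ppara itself measured 9.68, 11 and 10.7 FPKM in Acot12+/+ CL and 5.07, 7.93 and 4.27 FPKM in UUO, and for the mutant 19.1, 15.3 and 13.9 FPKM in CL and 5.26, 3.56 and 5.23 FPKM in UUO. It fell by 0.80 (SE 0.21, limma adjusted p = 0.00732) and by 1.59 (SE 0.21, limma adjusted p = 5.32e-05), and the first call was lost with equal totals. Its partner Rxra passed in neither genotype, with differences of -0.24 (SE 0.27, limma adjusted p = 0.490) and -0.35 (SE 0.27, limma adjusted p = 0.298).

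In CL, where Cyp4a10, Cyp4a14 and Cyp4a31 were higher in Acot12-/- mice, limma called 1.12% of tested genes higher and 3.36% lower in that genotype. Of the 33 PPARalpha targets, 4 were called higher and none lower. At an unadjusted p under 0.05 it was 12 of 33, beside 2289 of all 13243 tested genes in either direction. The targets had a median log2 difference of 0.29, beside 0.58 for the 16 proximal tubule markers and 0.01 for all genes. Of the 4 called higher, 3 are given here and were named after their values were seen. Pdk4, which inhibits pyruvate dehydrogenase, was higher by 1.05 (SE 0.23, limma adjusted p = 0.0273). Decr2, a peroxisomal reductase, was higher by 0.77 (SE 0.19, limma adjusted p = 0.0449), and Acsl1, which activates long-chain fatty acids, by 0.66 (SE 0.15, limma adjusted p = 0.0292). Without Acot12-/- CL replicate 2, the count of targets called higher was 12, and with equal totals it was 2. Ppara differed by 0.57 (SE 0.21, limma adjusted p = 0.161), with all 3 Acot12-/- CL libraries above all 3 Acot12+/+ CL libraries. With only the CL libraries in the fit, limma called 1 gene in all between the genotypes.

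In UUO, limma called 0.0151% of tested genes between the genotypes, 2 genes, and none of the 90 listed genes. Of the 90, 5 PPARalpha targets and 1 gene each of 3 other lists had an unadjusted p under 0.05 (the other Cyp4 genes, the epoxygenases and the male-biased genes). Over all 13243 tested genes, 312 had such a p. The difference between the genotypes in their response to obstruction, the interaction, was called for 0.106% of tested genes and for none of the 90, and with the replicate number as a replicate block it was called for 83 genes in place of 14, still none of the 90. Without Acot12-/- CL replicate 2 it was called for 916 genes, 3 of the 90 among them. These were Cyp4f18 (1.2, limma adjusted p = 0.0355), Pla2g4a (0.90, limma adjusted p = 0.0304) and Ptgs1 (0.52, limma adjusted p = 0.0457), and Cyp4f18 was named after its values were seen. The interaction of the members was -0.48 (SE 0.96) for Cyp4a10, 0.49 (SE 0.75) for Cyp4a12a, -0.96 (SE 0.47) for Cyp4a12b, -1.76 (SE 0.97) for Cyp4a14 and -0.25 (SE 0.51) for Cyp4a31.

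Genes of the male kidney were examined because Cyp4a12a is androgen-dependent. Of 8 tested male-biased genes, 7 were lower in UUO in each genotype. Slc7a13, a transporter of the last proximal tubule segment, measured 848, 500 and 545 FPKM in Acot12+/+ CL and 13.1, 19.0 and 83.7 FPKM in UUO, a log2 difference of -4.42 (SE 0.77, limma adjusted p = 6.57e-04). Between the genotypes in CL none of the 8 was called, and 1 had an unadjusted p under 0.05, beside 2289 of all 13243 tested genes. By sign alone, 5 of the 8 were lower and 3 higher in Acot12-/- CL. Slc7a13 stood there at 531, 668 and 438 FPKM in Acot12-/- mice, a difference of -0.19 (SE 0.77, limma adjusted p = 0.940). Cyp2e1, one of those higher, measured 586, 589 and 725 FPKM in Acot12+/+ CL. In Acot12-/- CL it measured 783, 871 and 1304 FPKM, with no overlap. Slco1a1, an organic anion transporter named after its values were seen, was the 1 with an unadjusted p under 0.05, at 160 ± 77.6 FPKM in Acot12+/+ and 46.8 ± 29.4 FPKM in Acot12-/- CL (SD, n = 3), with no overlap and a difference of -1.82 (SE 0.69, limma adjusted p = 0.180). Of 15 tested regulators, 7 were called lower and 0 higher in UUO in Acot12+/+ mice, which became 2 lower and 5 higher with equal totals. Ghr, the growth hormone receptor, had the largest fall of the list in Acot12+/+ mice, by 2.69 (SE 0.34, limma adjusted p = 8.18e-05). Hnf4a, a transcription factor of the proximal tubule, fell by 1.17 (SE 0.18, limma adjusted p = 2.43e-04), a call lost with equal totals.

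The genes whose profiles over the 12 libraries lay closest to each member were found by the root mean square difference of log2 values, each profile centred on its own mean. Closest to Cyp4a10 were Ugt3a2 (0.31), Cyp2e1 (0.32) and Dmgdh (0.32), which share its low point in Acot12-/- UUO replicate 2, at 38.7, 37.3 and 2.14 FPKM. Closest to Cyp4a31 were Slc16a9 (0.15), Slc23a1 (0.16) and Cat, the peroxisomal catalase (0.16), a nearer match than any other member had. Cyp4a14 lay closest to Cyp2a5 (0.59), Cyp2c44 (0.65) and Ceacam2 (0.68), and Cyp4a12b to Prnp (0.29), Fv1 (0.31) and Wee1 (0.32). For Cyp4a12a they were Ccl28 (0.59), Acot12 itself (0.72) and Gm15217 (0.84). Ccl28, a chemokine of epithelia, measured 20.8, 4.48 and 7.64 FPKM in Acot12+/+ CL and 4.19, 3.38 and 2.87 FPKM in Acot12-/- CL, with the same high library, Acot12+/+ CL replicate 1. The distance between Cyp4a12a and Cyp4a12b was 1.58, and that between Cyp4a10 and Cyp4a31 was 0.62.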

How the data were processed

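Kidney cortex RNA of 12 libraries was sequenced by the authors on a NovaSeq instrument from strand-specific libraries, and trimming, mapping and normalization were done by a sequencing company. The submitters' processing notes name mm10 and edgeR. The aligner is not given in the sources used here. The deposited values are FPKM per gene symbol. Their unit was derived from the values, whose low steps scale with transcript length, and this also gave the library size. Sequences and positions came from GRCm38 with GENCODE vM21.

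Differences of log2(FPKM + 1) were fitted with limma 3.58.1 in R 4.3.3 over 4 groups with a variance trend, and p-values were Benjamini-Hochberg adjusted over 13243 genes with at least 1 FPKM in 3 libraries and called at 0.05. Left out were 58 genes listed at 0 in at least 1 library beside 10 FPKM or more in another of the same group (28 of them above the minimum). Among them was Kap, at 0 in 3 of 6 CL libraries. Scaling to equal totals kept these genes in the totals. With equal totals without them, 1278 of 8016 called genes were lower in UUO in Acot12+/+ and 1742 of 7587 in Acot12-/- mice. The fit was tested on simulated data. The members and gene lists were chosen with earlier results of these data known. Of each list, the 2 tested genes with the highest mean and the called gene that rose most and the one that fell most in Acot12+/+ UUO were named, with Ppara, Rxra and Hnf4a always, and 3 most similar genes per member. Genes that these rules name but that are withheld are not reported here.

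CL and UUO libraries with the same number in the labels deviated together from their group means within a genotype. The r was 0.13, 0.36 and 0.33 in Acot12+/+ and 0.32, 0.19 and 0.32 in Acot12-/-. For different numbers it was at most 0.14 in Acot12+/+ and -0.07 in Acot12-/-. Between UUO libraries of the genotypes, which are different mice, r reached 0.39 for the same number and 0.45 for different numbers. These values cannot settle that a number marks the kidneys of the same mouse. The number was used as a pairing in an alternative fit, in which the interaction was called for 83 genes. The labels do not say that libraries of a group came from separate animals, so p-values measure the spread between these libraries. Alternatives were another pseudocount, no filter, scaling to equal totals or by median ratios, no variance trend, only the groups compared, the block and each library left out. Keeping the genes with a 0 beside a high value, equal totals without them, and equal totals for the endothelial marker sum were added after seeing the data.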

Additional observations from a re-analysis of the deposited data

Results flagged for a closer look

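The summed level of 6 endothelial markers moved in opposite directions with obstruction in the 2 genotypes. Within replicate numbers, the log2 ratio of UUO over CL was -0.37, -0.38 and -0.83 in Acot12+/+ mice (mean -0.53, SD 0.26) and 1.38, 0.97 and 1.12 in Acot12-/- mice (mean 1.16, SD 0.20). The single markers were split in Acot12+/+ mice, with 4 lower in UUO (3 called) and 2 higher (1 called). In Acot12-/- mice 6 were higher (5 called). In UUO the sums of the genotypes overlapped, at 96.0 to 113 and 108 to 138 FPKM. In CL they were 125 to 200 and 41.4 to 65.0 FPKM, with no overlap. The opposite direction depends on the scaling: with equal totals the ratios were 0.41, 0.53 and -0.31 in Acot12+/+ (mean 0.21, SD 0.46) and 1.98, 1.63 and 1.5 in Acot12-/- mice (mean 1.70, SD 0.25). The difference of the sums was not tested. For the single genes, the interaction had an unadjusted p under 0.05 for 6 of 6 markers, beside 1389 of all 13243 tested genes. It was called by limma for none of the 6, and with the replicate block, which called 83 genes in all, it was called for Egfl7 (1.71, SE 0.22, limma adjusted p = 0.0369) and Pecam1 (1.29, SE 0.18, limma adjusted p = 0.0384). Without Acot12-/- CL replicate 2 it was called for 5 of the 6. The part of these cells in the Cyp4a values was not tested.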

How the results depend on the processing

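No difference of a member with separate groups changed sign under any alternative run. Of the members' differences, 288 values with a library left out and 87 others moved by less than 1 SD of log2 values within groups, pooled over the 4 groups, and 9 moved by more. Each difference uses only the libraries of the 2 groups compared, so leaving out a library of another group could not change it. Such unchanged values are among the 288, as are those of Cyp4a32, so this count is not read as a measure of stability. That SD is wider than the standard errors, and the differences of Cyp4a10 and Cyp4a14 between genotypes in UUO moved by more than their standard errors without Acot12-/- UUO replicate 2, to 1.12 and 0.98, as did that of Cyp4a12a in CL without Acot12+/+ CL replicate 1, to -1.55. Counts of UUO genes stayed within 1.5 times of 6290 and 7114 under every alternative. The genotype count in UUO, 2 (312 at an unadjusted p under 0.05), was 0 by limma with a pseudocount of 0.1 (246 at that p), with no filter (746), with only the groups compared (751) and with the genes with a 0 beside a high value kept (314). The genotype count in CL, 593, was 333 with equal totals, 395 with equal totals without those genes and 1 with only the groups compared. The interaction count, 14, was 0 with no filter, 0 with both forms of equal totals, 8 with no variance trend and 83 with the replicate block, which paired libraries by number and moved no other count by over 1.5 times. The log2 ratio of the summed family in Acot12+/+ UUO went from -1.89 to -1.16 with equal totals. With equal totals without the genes with a 0 beside a high value it was -1.27. Over Cyp4a12a and Cyp4a12b alone the ratio was -1.21 for Acot12-/- UUO, -0.94 between genotypes in UUO and -1.30 in CL. For all 6 genes these ratios were -2.50, 0.00 and 0.61. The endothelial marker sum in Acot12+/+ mice turned from -0.53 to 0.21 with equal totals. The cause was not tested. With a library left out, the counts ran from 4925 to 8189 (Acot12+/+ UUO), 5849 to 8400 (Acot12-/- UUO), 0 to 2 (genotype, UUO), 189 to 2923 (genotype, CL, lowest without Acot12+/+ CL replicate 1 and highest without Acot12-/- CL replicate 2) and 0 to 916 (interaction, highest without Acot12-/- CL replicate 2). The summed log2 ratios ran from -2.11 to -1.61, -2.92 to -1.76, -0.42 to 0.73 (highest without Acot12-/- UUO replicate 2) and 0.40 to 0.88. Cyp4a32, at 2 to 17 fragments, was limited by its few fragments.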
